A study of Mus musculus with 9 samples.

Results

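Carbon tetrachloride (CCl4) fibrosis liver was compared with normal liver in 6 of the 9 RNA-seq libraries of the series. The members were taken by their source names alone, 3 libraries named for liver fibrosis and 3 named for normal liver, and every gene with enough counts was tested. The labels describe male Wistar rats of 180 ± 20 g in groups of 8. Rats of the fibrosis group had received CCl4, mixed to 50% in olive oil, at 2 mL/kg 3 times a week over 8 weeks, and rats of the normal group olive oil in the same volume. The other 3 libraries came from rats with the same CCl4 course that also had schisandrin B, a lignan of Schisandra fruit, through the last 4 weeks at 25 or 50 mg/kg a day. The labels do not say which of the 2 doses these libraries had, how long after the last CCl4 dose the livers were taken, whether the rats were fasted, or whether the libraries of a group came from separate animals. Errors and p-values therefore measure the spread between these libraries, which may be technical. In whole-liver RNA a smaller number of cells of one type and less RNA per cell cannot be told apart.

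Hepatocytes around the central vein hold the cytochrome P450 enzyme Cyp2e1, which splits CCl4 into radicals that attack membrane lipids and proteins. Cells answer damaged proteins by making chaperones and proteasomes, by slowing the start of translation through the kinases of the integrated stress response, and by switching on the oxidant-sensing factor Nrf2. With repeated injury hepatic stellate cells, the vitamin A stores of the sinusoid wall, turn into contractile myofibroblasts that lay down collagen.

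The 6 libraries held 11559361 to 16255167 counts. Pearson correlations of log2 CPM (counts scaled to library depth, with TMM factors) across genes, which are not independent replicates, ran from 0.979 to 0.98 among the libraries labelled normal, from 0.947 to 0.977 among fibrosis libraries and from 0.805 to 0.859 between the groups. Fibrosis replicate 1 stood apart: its counts differed from those of replicates 2 and 3 with a chi-square of 105.4 and 127 per degree of freedom, against 47.37 between the latter, so each count of genes is also given without it where that changes it by over 1.5 times. The libraries labelled normal went against one label. The Y-linked genes Kdm5d and Eif2s3y were at 0 counts in each of them, while Eif2s3y stood at 10.7, 9.08 and 11.3 CPM in the fibrosis libraries and at 10.4, 13.3 and 11.8 CPM in the schisandrin B libraries. Ddx3y, also Y-linked but with a close copy on the X chromosome that can share its reads, stood at 1.03, 0.813 and 2.59 CPM in libraries labelled normal and 0.971, 1.21 and 1.53 CPM in fibrosis libraries, with no call. The labels say that all rats were male. Since 2 of the 3 Y-linked genes tested go against that for every library labelled normal, sex and CCl4 cannot be told apart in any difference from them, and they cannot be left out. For that reason the levels of the schisandrin B libraries, which had Kdm5d and Eif2s3y counts and the same CCl4 course, are given beside the genes that matter most. No overlap is drawn from them, since the comparisons share libraries. Hepatocyte markers were present in every library, with transthyretin, Ttr, at 6515, 8915 and 7213 CPM in libraries labelled normal and 3330.1, 3737 and 1988 CPM in fibrosis libraries.

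A quasi-likelihood F test in edgeR, with Benjamini-Hochberg adjustment over 14581 genes, called 48.3% of them at an adjusted p under 0.05, 25.4% higher and 22.9% lower in fibrosis libraries. The words rose and fell mark called genes, and a change is a log2 fold change with its standard error (SE). The 3 libraries of one group lay wholly above or below those of the other for 55.8% of the genes. The median of all genes was 0.03. When libraries were scaled by their totals alone the median moved up by 0.432, the share of calls that were higher went from 52.7% to 74.7%, and changes below that size depend on the scaling. The 3 values in a row are replicates 1 to 3 of a group, in CPM.

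A few plasma proteins took a smaller part of the RNA in fibrosis libraries, and genes of protein folding and removal a larger one. The 10 called genes with the largest loss of CPM were albumin (Alb), Tf, C3, Apoe, Ahsg, Cyp2c7, A1bg, Itih4, Cyp2e1 and Pzp. Together they took 24.8% to 27.9% of all counts in the libraries labelled normal, but 9.66% to 13.4% in fibrosis libraries, and with schisandrin B 21.8% to 22.4%. Of these, 8 encode secreted plasma proteins (all but Cyp2c7 and Cyp2e1). A1bg and Cyp2c7 are on the list of female-biased liver genes. The schisandrin B sum was mostly Alb, at 13.1%, 13.8% and 14.3%. With schisandrin B the shares of A1bg and Itih4 lay below every fibrosis library, and that of C3 within the fibrosis range. The shares of Alb, Tf, Apoe, Ahsg, Cyp2c7, Cyp2e1 and Pzp lay above every fibrosis library. Alb alone fell from 17.1%, 13.9% and 14.0% of the counts to 5.78%, 7.65% and 4.18%. The 10 with the largest gain included the antiprotease Serpina3n, the ER chaperone Hspa5, the polyubiquitin gene Ubb, the autophagy receptor Sqstm1, the lysosomal protease Ctsl, the lipid droplet coat Plin2, the proteasome adapter Zfand2a, the chaperone Hsp90ab1 and the fibrinogen chain Fgg. Together the 10 went from 0.922% to 1.12% of the counts to 6.06% to 8.95%, and stood at 1.08% to 1.31% in schisandrin B libraries. The 20 genes were chosen for these changes, so both sums are descriptions.

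**Figure D1:**
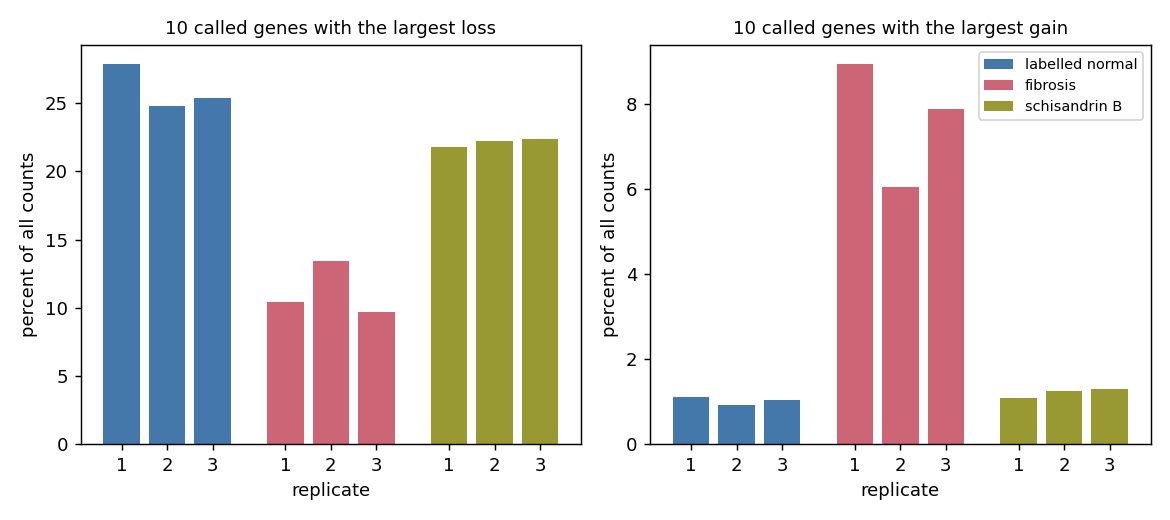
Percent of all counts per library (linear axis from 0) taken by the 10 called genes with the largest loss of CPM (left) and the 10 with the largest gain (right); 1 bar is 1 library. The losing genes took 24.8% to 27.9% in libraries labelled normal and 9.66% to 13.4% in fibrosis libraries, and the gaining genes 0.922% to 1.12% and 6.06% to 8.95%.

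Most genes of protein folding rose, and none of the 56 tested on 3 lists fell. Of 24 tested genes on the Hsp70 and Hsp90 list 22 rose and 0 fell, with a median of 2.63. That list also holds cochaperones, small heat shock proteins, heat shock transcription factors and genes of the mitochondrial chaperonin. The 8 subunits of the CCT chaperonin, the ring that folds actin and tubulin, all rose, within a narrow range of 1.23 to 1.63. Of 24 ER chaperones and ER-associated degradation genes 16 rose and 0 fell (median 1.05). Hspa5, the ER chaperone BiP, stood at 694, 639 and 694 CPM in libraries labelled normal and at 10557, 5702 and 5193 CPM in fibrosis libraries. It rose by 3.40 ± 0.31 (SE) with an edgeR adjusted p of 1.01e-05, and its schisandrin B levels of 734, 757 and 528 CPM lay close to those of the libraries labelled normal. Bag3, the cochaperone that hands clients of Hsp70 to autophagy, went from 34.5, 28.9 and 46.6 to 2240.3, 515 and 426 CPM and rose by 4.85 ± 0.66 (edgeR adjusted p 0.000243). Replicate 1 was several times higher than the other fibrosis libraries for Bag3, Dnajb1 and Hspb8, and all 3 of the group were above every library labelled normal. Hsf1, the transcription factor that switches on heat shock genes, rose as well, from 11.1, 11.04 and 11.7 to 58.4, 42.00 and 34.6 CPM (1.99 ± 0.21, edgeR adjusted p 2.58e-05). Dnajb1, a partner of Hsp70, rose by 4.25 ± 0.71, and the small chaperone Hspb8 by 4.21 ± 0.42. In the ER, Creld2 went from 52.1, 44.6 and 40.4 to 256, 318 and 437 CPM, and here replicate 1 was the lowest of the fibrosis libraries. Atf6, a sensor of unfolded ER proteins, rose by 2.25 ± 0.20 with its 3 fibrosis libraries close together at 486, 436 and 440.5 CPM. Without fibrosis replicate 1 the counts for the folding lists were the same, 22, 8 and 16 higher and 0 lower, while the median of the Hsp70 and Hsp90 list was 1.74. With fibrosis replicate 1 left out Bag3 rose by 3.68, Dnajb1 by 2.80 and Hspb8 by 3.49.

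Most proteasome genes rose, and lysosomal genes fell more often than they rose. Of 34 subunits of the 26S proteasome 27 rose and 0 fell (median 0.92). Psmd12, a lid subunit, stood at 52.7, 43.96 and 49.1 CPM in libraries labelled normal, at 187, 152 and 131 CPM in fibrosis libraries and at 32.9, 42.6 and 46.7 CPM in schisandrin B libraries. It rose by 1.69 ± 0.20 (edgeR adjusted p 4.34e-05), and the ubiquitin receptor Adrm1 rose by 1.74 ± 0.20. The catalytic subunit Psmb5, which cuts after hydrophobic residues, did not pass the test (-0.03 ± 0.17, edgeR adjusted p 0.907), with libraries of the groups overlapping. Zfand2a, which is induced by arsenite and binds the proteasome, went from 9.79, 10.2 and 10.3 to 4772, 2323 and 1782 CPM and rose by 8.20 ± 0.42 (edgeR adjusted p 5.26e-07). Its schisandrin B levels were 15.9, 15.7 and 14.1 CPM, far below every fibrosis library. Of 22 ubiquitin and selective autophagy genes 12 rose and 2 fell (median 0.70). Sqstm1, which carries ubiquitinated cargo to autophagosomes, rose from 595, 792 and 904 to 6680.1, 5980.3 and 4806 CPM (2.93 ± 0.25, edgeR adjusted p 6.8e-06). Nploc4 and Ufd1l, the adapters that lead ubiquitinated proteins to the p97 unfoldase, rose by 1.77 ± 0.18 and 1.46 ± 0.17. Ulk1, the kinase that starts autophagosome formation, fell from 82.1, 109.5 and 126 to 54.6, 49.7 and 47.4 CPM, and the schisandrin B libraries were as low, at 51.2, 51.7 and 56.5 CPM. The count of falls in this list was 5 without fibrosis replicate 1 and 1 without any one of fibrosis replicates 2 and 3 and normal replicates 1 and 2. Lysosomal genes went the other way, with 3 of 23 higher and 14 lower (median -0.73; 5 and 8 with library totals). Gusb, the lysosomal glucuronidase, fell from 79.3, 77.1 and 80.9 to 19.3, 17.6 and 22.5 CPM (-1.99 ± 0.16, edgeR adjusted p 4.69e-06), and Npc1, which moves cholesterol out of lysosomes, fell by 1.37 ± 0.19. Ctsl, a lysosomal protease, was an exception and went from 758, 869 and 960.1 to 8822, 2806 and 3738 CPM, a rise of 2.57 ± 0.39 that was 1.93 without replicate 1.

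Most genes of the integrated stress response rose. This response raises Atf4, a factor that turns on amino acid uptake and synthesis. Of its 19 tested genes 17 rose and 1 fell (median 2.94). Atf4 itself went from 137, 118 and 146 to 561, 615 and 476 CPM (2.04 ± 0.19, edgeR adjusted p 1.02e-05), with 106, 94.7 and 98.5 CPM in schisandrin B libraries. Psat1, an enzyme of serine synthesis, stood at 3.35, 3.45 and 3.08 and at 24.4, 23.2 and 24.3 CPM, with close replicates in both groups, and asparagine synthetase, Asns, rose by 4.68 ± 0.51. The fall was in Aldh1l2, a mitochondrial folate enzyme (-1.57 ± 0.25). Amino acid transporters of the plasma membrane were split, 7 of 21 higher and 7 lower (median -0.26, and 0.12 with library totals). Slc7a1, the carrier of arginine and lysine, rose from 1.12, 0.88 and 0.81 to 76.02, 54.8 and 54.7 CPM, by 6.04 ± 0.26 (edgeR adjusted p 2.05e-07), and schisandrin B libraries held 1.34, 0.802 and 1.19 CPM. Slc3a2, the shared heavy chain of several carriers, rose by 2.84 ± 0.18 and Slc7a5, the leucine carrier it pairs with, by 1.12 ± 0.26. Slc43a1, another carrier of branched-chain amino acids, fell from 80.8, 56.6 and 80.2 to 13.1, 14.1 and 11.5 CPM (-2.49 ± 0.19), and the betaine and GABA carrier Slc6a12 fell by 2.72 ± 0.27.

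Aminoacyl-tRNA synthetases, which load amino acids on tRNAs, gave other counts in the cytosolic than in the mitochondrial set. Of 20 cytosolic enzymes 18 rose and 0 fell (median 1.71), while of 16 mitochondrial enzymes 1 rose and 7 fell (median -0.54; 2 rose and 3 fell with library totals). The share called was 90% in the cytosolic set. In the mitochondrial set it was 50%, near the 48.3% of all genes. Gars went from 49.2, 49.3 and 51.8 to 261, 294 and 246 CPM and rose by 2.41 ± 0.16 (edgeR adjusted p 2.18e-06), with 52.9, 58.8 and 61.8 CPM in schisandrin B libraries. Sars rose from 66.8, 61.3 and 78.2 to 616, 449 and 435 CPM (2.86 ± 0.21), and Hars by 3.11 ± 0.26. Cars2, the mitochondrial enzyme for cysteine, fell from 13.1, 12.6 and 14.6 to 2.43, 3.103 and 3.88 CPM (-2.09 ± 0.24, edgeR adjusted p 3.87e-05). Hars2 was the one mitochondrial member that rose (1.29 ± 0.17). In the mitochondrial set 4 fell without normal replicate 3, and 2 rose without fibrosis replicate 3. The difference between the 2 sets was not tested, and Gars also serves mitochondria.

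Most genes of ribosome assembly and of the start of translation rose. Of 44 factors that build ribosomes 42 rose and 0 fell, with a median of 2.18. Nop56, a core protein of the snoRNPs that methylate ribosomal RNA, went from 12.03, 10.02 and 13.3 to 227, 146 and 120.4 CPM (3.80 ± 0.25, edgeR adjusted p 1.97e-06). Tsr1, which matures the small subunit, stood at 16.2, 14.4 and 16.5 and at 108, 109 and 99.8 CPM and rose by 2.75 ± 0.16, and Noc2l, a nucleolar factor of the large subunit, by 2.56 ± 0.17. The 3 fibrosis libraries of Tsr1 and of Noc2l lay close together, and schisandrin B libraries held 29.4, 25.6 and 24.4 CPM of Tsr1. Of 37 genes on the initiation factor list, which also holds elongation factors, 26 rose and 0 fell (median 0.99). Eif2s1, the subunit that the stress kinases phosphorylate, rose from 13.7, 12.5 and 12.95 to 70.3, 54.5 and 53.1 CPM (2.18 ± 0.17, edgeR adjusted p 4.84e-06), and Eif4a1, the helicase that opens the mRNA 5' end, by 1.96 ± 0.17. Of 76 ribosomal protein genes 31 rose and 0 fell, but their median of 0.52 was small and close to the shift between scalings. Among them 40.8% were called, against 48.3% of all genes. Rpl3 rose from 285, 239.6 and 268 to 623, 686 and 693 CPM (1.34 ± 0.17). Without fibrosis replicate 1 the 3 counts were 42, 26 and 23 higher. Without normal replicate 3 the ribosomal protein count was 19, and with library totals 61 ribosomal protein genes rose. Without fibrosis replicate 2 the falls were 1 on the initiation factor list and 1 among ribosomal protein genes. Polyamines, small cations that growing cells make from ornithine, belong to the same growth genes by function: Odc1, the first enzyme of the route, rose by 1.13 ± 0.20, and spermidine synthase, Srm, from 7.301, 6.71 and 10.9 to 82.4, 80.4 and 67.00 CPM (3.20 ± 0.28, edgeR adjusted p 8.91e-06). The catabolic enzymes Sat1 and Smox rose too, by 3.67 ± 0.50 and 3.15 ± 0.21, and Oaz2, an antizyme that marks Odc1 for degradation, fell by 1.53 ± 0.19. The rise of Sat1 was 2.71 without fibrosis replicate 1. In all 7 of 11 polyamine genes rose and 2 fell (1 fell without normal replicate 1 and with library totals).

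Early response genes rose in 11 of 25 cases, and more genes of cell division fell than rose. Myc, the factor that drives ribosome genes, went from 10.05, 26.5 and 10.7 to 247, 330.3 and 206 CPM (4.05 ± 0.55, edgeR adjusted p 0.000241), above the schisandrin B libraries at 33.2, 14.4 and 8.86 CPM. Of 25 AP-1 subunits and immediate early genes 11 rose and 0 fell (median 0.81; 9 rose and 1 fell without fibrosis replicate 1), and the other 14 had no call. Fosl1, an AP-1 subunit, held 2 counts over the libraries labelled normal against 3594 over those of fibrosis, and the ratio scaled to depth was 1635 with an exact 95% counting interval of 452 to 13507. Klf6, induced in injured liver, rose by 3.53 ± 0.51, and Jun, which was already at 133, 292 and 449 CPM in libraries labelled normal, did not pass the test (0.68 ± 0.57, edgeR adjusted p 0.352). Without fibrosis replicate 1 Klf6 rose by 2.86, and without normal replicate 2 Myc rose by 4.65. Of 12 EGFR and HGF genes 4 rose and 4 fell (7 and 4 with library totals). Btc, a ligand of EGFR, had 0 counts in libraries labelled normal and was at least 9.8-fold higher at 2.83, 2.42 and 1.64 CPM. The receptor Egfr rose from 106, 205 and 190.2 to 952, 491 and 355 CPM (1.84 ± 0.36, edgeR adjusted p 0.00167), while Erbb3, the receptor without an active kinase, fell from 214, 323 and 395 to 55.4, 47.5 and 76.8 CPM (-2.37 ± 0.27), and Hgfac, which activates HGF, by 1.33 ± 0.19. Of 26 replication and mitosis genes 3 rose and 10 fell (median -0.85). Without normal replicate 1 the falls were 4, and without normal replicate 2 they were 6. With library totals 4 rose and 4 fell, so falls no longer outnumbered rises. At a mean of at least 5 CPM only 6 of the replication and mitosis genes were tested, and 2 rose and 3 fell. The shares called were 44% in the list of AP-1 and immediate early genes and 50% in that of replication and mitosis. Both were near the 48.3% of all genes. Mcm7, a subunit of the replication helicase, went from 17.9, 11.1 and 13.7 to 41.9, 55.6 and 47.8 CPM (1.77 ± 0.22). Cyclin D1, Ccnd1, fell from 68.1, 49.6 and 68.8 to 13.4, 25.5 and 9.81 CPM (-1.94 ± 0.44, edgeR adjusted p 0.00478), and the mitotic kinase Cdk1 fell by 2.10 ± 0.54 from levels of 2.41, 0.948 and 3.81 CPM. Top2a, which untangles chromosomes at mitosis, fell by 1.98 ± 0.44, and schisandrin B libraries were as low as fibrosis libraries for both, at 0.478, 0.365 and 0.183 CPM of Cdk1 and 0.478, 0.219 and 0.365 CPM of Top2a.

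**Figure D2:**
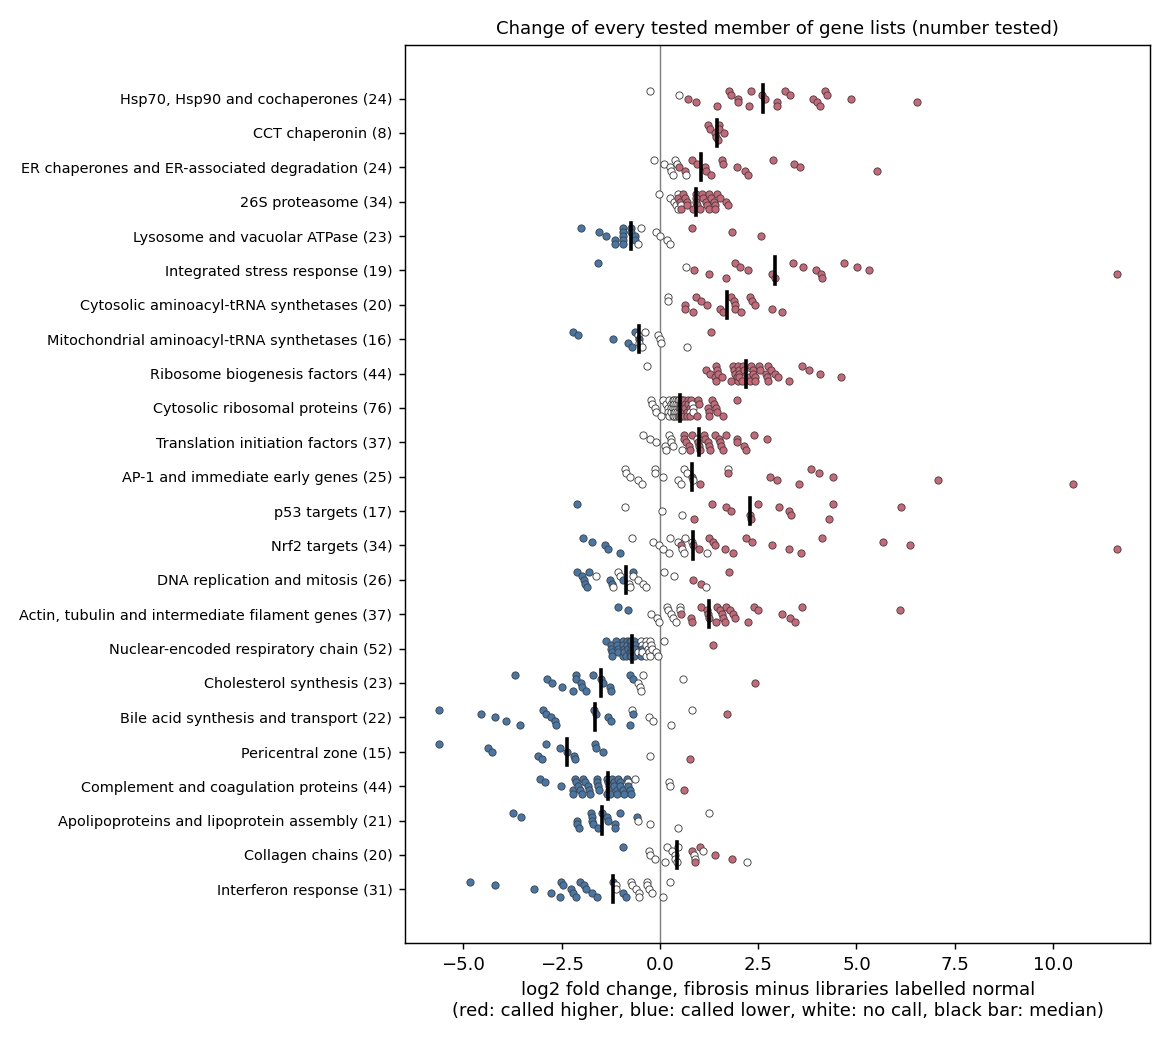
Log2 fold change (fibrosis minus libraries labelled normal, linear axis) of every tested member of 24 gene lists; 1 dot is 1 gene, filled where edgeR called it, and the bar is the list's median. The ribosome biogenesis, chaperone and stress lists lie to the right, and complement, apolipoprotein, pericentral and bile acid lists to the left.

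Most p53 targets rose, and regulators of cell death changed in both directions. Of 17 tested p53 targets 13 rose and 1 fell (median 2.28), and of 26 regulators of apoptosis and necroptosis 8 rose and 6 fell (median 0.30; 13 rose and 2 fell with library totals). The share called among these regulators was 53.8%, near the 48.3% of all genes. The p53 target Aen, a nuclease of apoptosis, went from 16.1, 10.97 and 18.9 to 212, 149.7 and 86.8 CPM (3.28 ± 0.32, edgeR adjusted p 1.54e-05). Sesn1, an inhibitor of mTORC1, was the one p53 target that fell (-2.12 ± 0.28). Casp12, a caspase of the ER, rose from 0.344, 0.474 and 0.162 to 5.75, 2.88 and 3.52 CPM, and Bcl2l1, which encodes the survival protein Bcl-xL, rose by 2.00 ± 0.33. Bmf, a killer of the Bcl2 family, fell from 122, 104 and 139 to 7.45, 7.19 and 8.34 CPM (-3.99 ± 0.18, edgeR adjusted p 2.05e-07). Schisandrin B libraries lay between, at 69.7, 72.5 and 64.7 CPM. Casp6, an executioner caspase, fell by 3.39 ± 0.57. Without fibrosis replicate 3, normal replicate 1 or normal replicate 3 the apoptosis list had 3 falls, and without fibrosis replicate 3 the p53 list had 2.

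Among secreted stress factors Fgf21 and Lcn2 rose, to levels that differed widely among fibrosis libraries. Of 15 such factors 6 rose and 3 fell (5 fell without fibrosis replicate 1 and 5 without replicate 2). Fgf21, a hormone that the stressed liver sends out, went from 11.5, 4.81 and 12.7 to 529, 133 and 54.7 CPM (4.63 ± 0.85, edgeR adjusted p 0.00207), and replicate 1 was the highest. Lcn2, which binds bacterial iron carriers, went from 20.1, 8.601 and 4.45 to 57.7, 80.9 and 592 CPM (4.47 ± 1.02), and there replicate 3 was the highest. Igfbp1, which binds IGF-1, rose from 443, 613 and 859 to 2961, 2094 and 1755 CPM (1.83 ± 0.32, edgeR adjusted p 0.000658). Gdf15, a stress hormone that reduces appetite, did not pass the test, at 12.03, 13.1 and 30.4 and 77.2, 19.98 and 22.4 CPM with overlap (edgeR adjusted p 0.149). Angptl4, an inhibitor of lipoprotein lipase, fell from 229, 169 and 210.1 to 67.3, 92.9 and 82.8 CPM (-1.32 ± 0.21). Fgf21 rose by 3.28 without fibrosis replicate 1. The rise of Lcn2 was 2.66 without fibrosis replicate 3 and 5.21 without normal replicate 1. With library totals Gdf15 was called higher (edgeR adjusted p 0.0409).

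**Figure D3:**
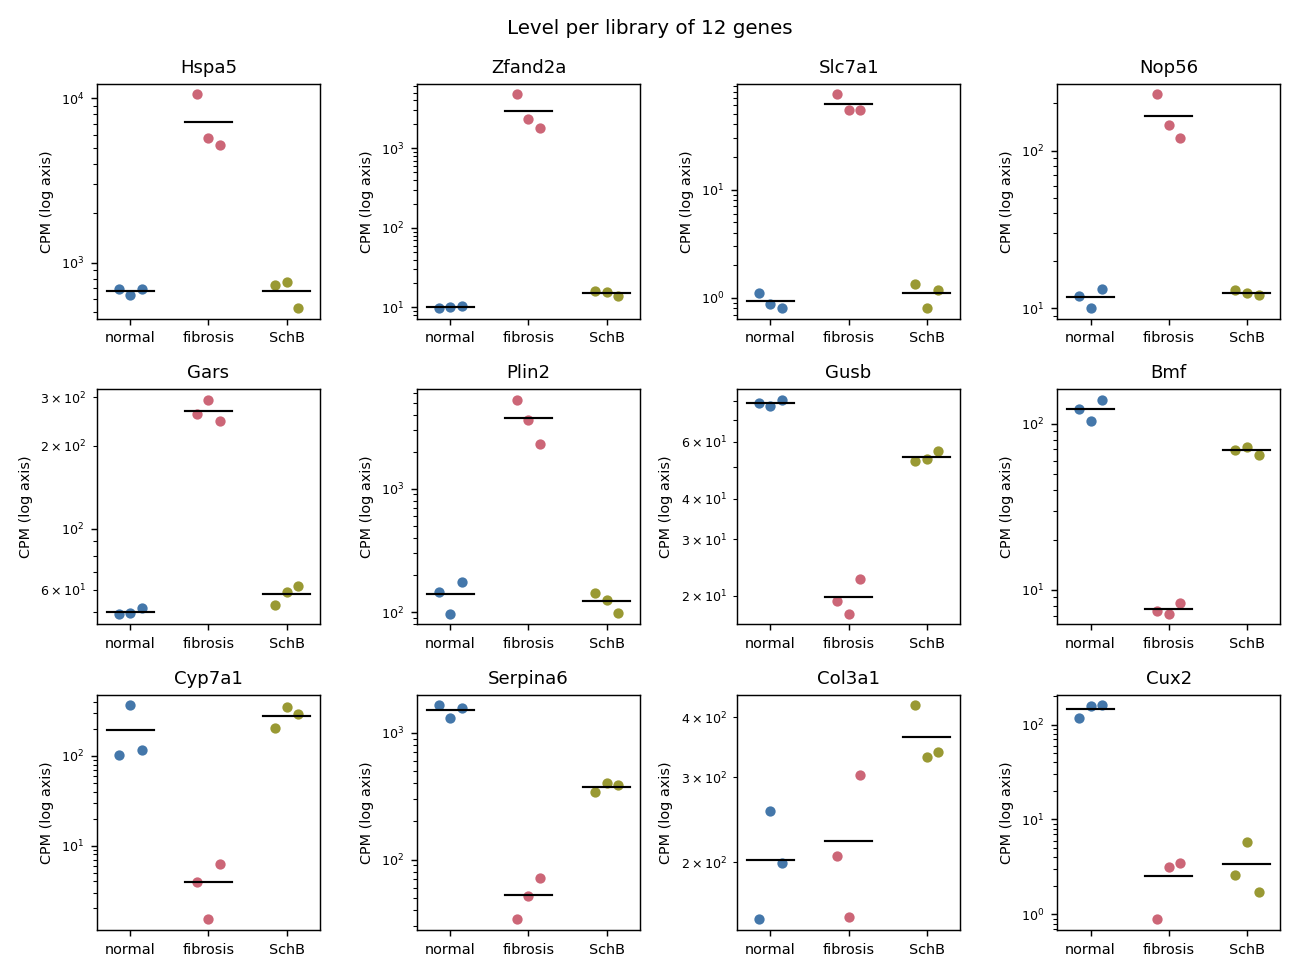
CPM per library (log axis) of 12 genes in the 3 libraries labelled normal, the 3 fibrosis libraries and the 3 schisandrin B libraries; 1 dot is 1 library and the short line is the group mean (SchB, schisandrin B). For Hspa5, Zfand2a, Slc7a1 and Nop56 the fibrosis libraries lie above all others, and for Gusb, Bmf, Cyp7a1 and Serpina6 below.

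Oxidant defence split into induced and falling enzymes. Of 34 tested Nrf2 targets 17 rose and 5 fell (median 0.84; 3 fell without fibrosis replicate 2 and 3 with library totals). Gclc, the catalytic subunit of glutathione synthesis, went from 82.5, 92.3 and 86.2 to 926, 551 and 417 CPM (2.86 ± 0.30, edgeR adjusted p 2.4e-05), and thioredoxin reductase, Txnrd1, rose by 4.13 ± 0.50, or 3.21 without fibrosis replicate 1. Gsta4, a glutathione transferase that clears lipid aldehydes, fell from 73.01, 65.7 and 79.02 to 17.3, 20.1 and 19.1 CPM (-1.94 ± 0.18), and its reads can be shared with paralogs. Of 18 genes that remove peroxide and superoxide 4 rose and 11 fell (median -0.66; 5 rose and 5 fell with library totals). Gpx2 rose from 3.18, 2.37 and 2.83 to 18.5, 31.5 and 42.1 CPM (3.46 ± 0.45, edgeR adjusted p 0.000128), and Sod2, the superoxide dismutase of mitochondria, by 1.66 ± 0.22. Catalase, Cat, fell from 2557, 2555 and 2228 to 613, 1028 and 506 CPM (-1.77 ± 0.27, edgeR adjusted p 0.000304), and Gpx1 from 2221, 1658 and 2329 to 485, 411 and 264 CPM (-2.42 ± 0.26). Schisandrin B libraries held 2498, 3373 and 2987 CPM of Cat. Of 19 metallothionein and iron genes 3 rose and 9 fell (median -0.53; 4 rose and 5 fell, with a median of -0.07, with library totals). The transferrin receptor Tfrc rose by 1.87 ± 0.52, or 0.99 without fibrosis replicate 1, and without normal replicate 1 it had no call (edgeR adjusted p 0.0506). Aco1, which also acts as an iron sensor, fell from 266, 283 and 296 to 29.8, 65.01 and 64.3 CPM (-2.41 ± 0.27, edgeR adjusted p 3.65e-05). Hamp, the hormone hepcidin that lowers blood iron, stood at 1495, 93.1 and 15.1 CPM in fibrosis libraries, on both sides of the 285, 226 and 199.7 CPM of libraries labelled normal, and no difference was called (edgeR adjusted p 0.574).

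Cytoskeletal genes rose in 25 of 37 cases and fell in 2 (median 1.25). The tubulin Tubb6 went from 5.24, 2.57 and 3.56 to 375, 208 and 200.01 CPM (6.11 ± 0.37, edgeR adjusted p 1.2e-06), with 8.697, 5.83 and 7.304 CPM in schisandrin B libraries. Tubb4b rose by 2.40 ± 0.18 and Tubb2a by 3.30 ± 0.28. The hepatocyte keratins Krt18 and Krt8, which build up in Mallory bodies of injured liver, rose from 255, 197 and 315 to 1683, 818 and 1137 CPM and from 276, 229 and 275 to 941, 579.9 and 958 CPM (2.24 ± 0.29 and 1.67 ± 0.22). Anxa2, a membrane-bound organiser of actin, rose by 3.45 ± 0.32 (edgeR adjusted p 1.32e-05). Actb and Vim, a cytoplasmic actin and the mesenchymal filament vimentin, did not pass the test (0.18 ± 0.24 and -0.23 ± 0.26), and Tmsb4x, which sequesters actin monomers, fell by 1.06 ± 0.33. The falls of the list were 0 without fibrosis replicate 2, fibrosis replicate 3 or normal replicate 1 and with library totals, and 1 without normal replicate 2. Tmsb4x lost its call without each of the first 3 of these libraries (edgeR adjusted p 0.0725, 0.0607 and 0.103).

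More genes fell than rose in each of 7 routes of hepatocyte metabolism. Of 15 tested pericentral genes 13 fell and 1 rose (median -2.36), of 22 bile acid genes 16 and 1 (-1.65), of 23 cholesterol genes 17 and 1 (-1.50), of 22 fatty acid and triglyceride synthesis genes 12 and 4 (-1.33), of 29 fatty acid oxidation genes 21 and 3 (-1.29), of 35 urea cycle and amino acid genes 23 and 1 (-1.21) and of 12 genes of glucose production 6 and 1 (-1.11). Cyp7a1, the rate-limiting enzyme of bile acid synthesis, went from 103, 366 and 116 to 3.97, 1.51 and 6.28 CPM (-5.62 ± 0.67, edgeR adjusted p 0.000108), and schisandrin B libraries held 206, 349.7 and 289.8 CPM. The bile salt importer Slc10a1 fell from 652, 652 and 851 to 74.1, 139 and 78.2 CPM (-2.89 ± 0.27), and the bile salt export pump Abcb11 less, by 0.70 ± 0.21. Lhpp, a pericentral phosphatase, fell with close replicates from 72.4, 69.6 and 83.2 to 13.7, 15.7 and 14.4 CPM (-2.36 ± 0.16, edgeR adjusted p 1.97e-06), while Nkd1, a feedback inhibitor of Wnt signals, rose by 0.76 ± 0.22. Bdh1, which makes the ketone body hydroxybutyrate, fell by 3.82 ± 0.37, and Acsl1, which activates fatty acids, went from 2342, 2459 and 2954 to 156, 377 and 164 CPM (-3.48 ± 0.34). Acot2, a mitochondrial thioesterase, rose against the list, from 17.2, 11.4 and 16.4 to 40.3, 128 and 105 CPM (2.61 ± 0.39, edgeR adjusted p 0.00035). In sterol synthesis Ebp, a late enzyme, fell from 182, 168 and 209 to 42.1, 41.8 and 42.6 CPM (-2.14 ± 0.17). The fall of Cyp7a1 was 4.79 without normal replicate 2. Abcb11 had no call without fibrosis replicate 3 or normal replicate 3 (edgeR adjusted p 0.0507 and 0.0682). Plin2, which coats lipid droplets, went up from 145, 97.1 and 175 to 5274, 3624 and 2321 CPM (4.75 ± 0.37, edgeR adjusted p 4.35e-06), and Agpat9, which starts triglyceride synthesis, rose by 7.69 ± 0.66, or 6.81 without fibrosis replicate 1. The desaturase Fads1 fell from 1277, 1482 and 1904 to 45.7, 89.8 and 76.3 CPM (-4.46 ± 0.32). Fasn, the fatty acid synthase, did not pass the test (0.27 ± 0.36, edgeR adjusted p 0.556). Summed over the cholesterol list, schisandrin B libraries held 1927, 1968 and 2205 CPM. Fibrosis libraries held 6337, 2908 and 2223 CPM and libraries labelled normal 6093, 6622 and 7732 CPM. Fatty acid and triglyceride synthesis genes summed to 3445, 3036 and 3326 CPM with schisandrin B, against 10218, 7551 and 5577 CPM in fibrosis libraries. For the remaining routes every schisandrin B sum lay above every fibrosis sum.

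Most nuclear genes of the respiratory chain fell, and most glycolysis genes had no call. Pck1, the regulated enzyme of glucose production, went from 3074, 3945 and 3560.3 to 152, 1196 and 998 CPM (-2.17 ± 0.57, edgeR adjusted p 0.0107), and the carboxylase Pc fell by 1.71 ± 0.29. Pck1 had no call without the filter on low counts (edgeR adjusted p 0.0613). The 1 rise in the glucose production list was Pck2, the mitochondrial form (1.09 ± 0.42), and it was lost without any one library other than fibrosis replicate 1. Of 28 glycolysis genes 6 rose and 3 fell (5 fell without fibrosis replicate 1 and 1 without normal replicate 2), so that 32.1% were called, against 48.3% of all genes. The lactate carrier Slc16a1 rose most, from 37.02, 30.3 and 44.7 to 652, 298 and 251 CPM (3.42 ± 0.35, edgeR adjusted p 2.04e-05). The aldolase of muscle and growing cells, Aldoa, rose from 111, 127 and 115 to 429, 331 and 281 CPM (1.56 ± 0.19). Of 52 nuclear genes of the respiratory chain 35 fell and 1 rose, with a median of -0.71, and of the 13 genes on mitochondrial DNA 8 fell and 0 rose (median -0.69). With library totals these counts were 14 and 2, and 3 and 0, and without normal replicate 2 or 3 the mitochondrial falls were 5 or 4. Sdhd, a membrane anchor of complex II, fell from 118, 87.9 and 96.8 to 35.1, 48.3 and 34.6 CPM (-1.36 ± 0.19, edgeR adjusted p 0.000162), and COX3, on mitochondrial DNA, from 2577, 2679 and 2963 to 1475, 1436 and 1372 CPM (-0.94 ± 0.20). Schisandrin B libraries stood at 119, 129 and 141 CPM of Sdhd. Cps1, the entry of the urea cycle, fell by 1.74 ± 0.40, Ass1, a later enzyme of it, did not pass the test (-0.44 ± 0.21, edgeR adjusted p 0.114), and Aass, which breaks down lysine, rose by 1.21 ± 0.42. Aass had no call without fibrosis replicate 2 or 3 or normal replicate 1 or 3 (edgeR adjusted p 0.0788, 0.139, 0.109 and 0.0941).

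Hepatocyte transcription factors changed in both directions, and nuclear receptors fell more often than they rose. Of 23 hepatocyte transcription factors 4 rose and 9 fell (median -0.44; 9 rose and 3 fell with library totals). Hnf4a, the master factor of hepatocytes, had no call (-0.66 ± 0.31, edgeR adjusted p 0.0939), with 236, 659 and 533 CPM in fibrosis libraries, all below the 756, 712 and 791 CPM of libraries labelled normal. Nr5a2, a factor of bile acid genes, fell from 52.5, 61.6 and 53.9 to 17.00, 31.7 and 32.8 CPM (-1.04 ± 0.23, edgeR adjusted p 0.00293), and Cebpb, induced in injury, rose by 1.26 ± 0.31. With library totals Nr5a2 had no call (-0.59, edgeR adjusted p 0.0823). Of 29 nuclear receptors 2 rose and 15 fell (median -0.84; 5 rose and 12 fell with library totals). Ppara, the sensor of fatty acids, went from 113, 128 and 144 to 9.63, 28.8 and 45.04 CPM (-2.20 ± 0.43, edgeR adjusted p 0.00201) and stood at 189, 259.6 and 252 CPM in schisandrin B libraries. Rxra, the partner of most of these receptors, fell from 222, 246 and 261 to 91.1, 97.5 and 85.3 CPM (-1.41 ± 0.17), its relative Rxrg fell by 3.37 ± 0.31, and the retinoic acid receptor Rarb fell by 2.26 ± 0.25. The constitutive androstane receptor, Nr1i3, and Bcl6 were low in both groups, at 5.497, 3.93 and 13.4 and 5.02, 6.21 and 1.703 CPM and at 4.55, 1.96 and 2.35 and 3.56, 5.600 and 3.76 CPM, and not called. With schisandrin B, Nr1i3 was at 41.6, 83.8 and 102 CPM and Bcl6 at 46.9, 71.9 and 51.8 CPM. Of 17 clock genes 5 rose and 10 fell (6 and 6 with library totals). Arntl, the activator of the clock, rose from 1.804, 1.42 and 1.700 to 30.9, 16.6 and 11.5 CPM (3.58 ± 0.37, edgeR adjusted p 2.12e-05), and its output gene Dbp fell from 159, 186 and 199.7 to 2.83, 13.2 and 26.1 CPM (-3.68 ± 0.60). The related factor Tef fell by 2.14 ± 0.28. The labels give no hour of sampling. The falls among hepatocyte transcription factors were 4 without normal replicate 3, and the rises among clock genes 3 without fibrosis replicate 1 or normal replicate 1. Without fibrosis replicate 2 Hnf4a fell (-0.97, edgeR adjusted p 0.0228), without normal replicate 1 Bcl6 rose (0.99), and without fibrosis replicate 3 Dbp changed by -4.49.

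Plasma proteins of the liver fell broadly, with acute phase proteins split. Of 44 complement and coagulation genes 39 fell and 1 rose (median -1.31), and of 21 apolipoprotein and lipoprotein assembly genes 17 fell and 0 rose (-1.48). Summed over the complement and coagulation list, schisandrin B libraries held 51568, 52032 and 52708 CPM. Fibrosis libraries held 31432, 51258 and 51496 CPM and libraries labelled normal 72518, 77434 and 82756 CPM. The apolipoprotein list summed to 31562, 32587 and 31408.5 CPM with schisandrin B, against 15916, 16370 and 11994.5 CPM in fibrosis libraries. Serpind1, heparin cofactor II, went from 906, 885 and 1105 to 98.7, 187 and 95.2 CPM (-2.93 ± 0.28, edgeR adjusted p 1.42e-05). Mbl2, a lectin that starts complement, fell by 3.05 ± 0.31, coagulation factor F7 by 2.08 ± 0.21, and prothrombin, F2, from 3716, 3796 and 4642 to 1592, 1956 and 1477 CPM (-1.27 ± 0.20). The fibrinogen chains stood out from this list. Fgg rose from 4013, 3457 and 3567 to 4815, 5586 and 6509 CPM (0.62 ± 0.21, edgeR adjusted p 0.0271), while Fga and Fgb had no call (0.23 ± 0.33 and 0.25 ± 0.32). Fga stood at 6419, 6246 and 6204 CPM in libraries labelled normal and at 3350.5, 8952 and 9874 CPM in fibrosis libraries, so that replicate 1 lay below and replicates 2 and 3 above all libraries labelled normal. Without replicate 1 Fga and Fgb rose (0.58 and 0.58, edgeR adjusted p 0.0304 and 0.0281). Fgg had no call without fibrosis replicate 3, normal replicate 2 or normal replicate 3 (edgeR adjusted p 0.0632, 0.0927 and 0.0861). Of 28 acute phase and carrier proteins 4 rose and 17 fell (7 and 11 with library totals). Serpina3n, the acute phase antiprotease, rose from 4312, 2089.9 and 3601 to 20128, 18262 and 28354 CPM (2.74 ± 0.32, edgeR adjusted p 4.85e-05). A2m, the classical acute phase protein of the rat, stood at 0.172, 0.203 and 1.78 CPM in libraries labelled normal and at 1.46, 103 and 243 CPM in fibrosis libraries. It was called at 7.34 ± 1.77 (edgeR adjusted p 0.0102) although replicate 1 lay below 1 library labelled normal, and was 6.19 without fibrosis replicate 3 and 9.18 without normal replicate 3. In limma voom A2m had no call (adjusted p 0.162). Serpina6, the carrier of glucocorticoids, fell from 1646, 1311 and 1572 to 33.9, 51.6 and 71.5 CPM (-4.85 ± 0.30, edgeR adjusted p 1.34e-06), with 343, 400.4 and 385 CPM in schisandrin B libraries. Reads of Serpina genes can be shared between paralogs. Mttp, which loads lipid on apolipoprotein B, fell from 363, 384 and 438 to 80.1, 100.4 and 96.8 CPM (-2.10 ± 0.18), and Apob itself had no call (edgeR adjusted p 0.539). Without fibrosis replicate 1 Apob fell (-0.67, edgeR adjusted p 0.0357) and 3 complement and coagulation genes rose, against 0 without fibrosis replicate 3 or normal replicate 2 or 3. Without normal replicate 2 one gene of the apolipoprotein list rose.

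Sex-biased liver genes had the largest list medians after the Y-linked genes. Of 11 male-biased genes 10 rose and 1 fell, with a median of 9.30, and all 9 female-biased genes fell (median -6.12). Growth hormone, whose pulses in males and steady release in females set these genes, acts through the receptor Ghr, which fell from 547, 441 and 396 to 206, 169.8 and 95.95 CPM (-1.55 ± 0.27, edgeR adjusted p 0.000651). Cux2, a repressor found in female liver, stood at 117, 157 and 159 CPM in libraries labelled normal, at 0.891, 3.18 and 3.46 CPM in fibrosis libraries and at 2.58, 5.76 and 1.73 CPM in schisandrin B libraries. Srd5a1, a steroid reductase, likewise fell from 2358, 2096 and 2744 to 9.796, 50.1 and 43.3 CPM (-6.12 ± 0.57, edgeR adjusted p 1.88e-05), with 174, 151 and 113 CPM in schisandrin B libraries. The prolactin receptor Prlr stood at 632, 354 and 593 and 0.243, 0.832 and 11.9 CPM and was called lower. Cyp2c11, the main P450 of male rat liver, held 0.344, 1.02 and 0.648 CPM in libraries labelled normal and 697, 517 and 101 CPM in fibrosis libraries (9.30 ± 0.87, edgeR adjusted p 2.77e-05), and Cyp3a2 rose by 7.69 ± 0.53. Cyp2c and Cyp3a reads can be shared between paralogs. Hsd17b2, an enzyme that inactivates estradiol, was the male-biased gene that fell, from 1149, 1111 and 1236 to 143, 109.6 and 91.5 CPM, and schisandrin B libraries held 1421, 1508 and 1671 CPM. Summed over the female-biased list, libraries labelled normal held 26345, 15115 and 18765 CPM, fibrosis libraries 538, 553 and 842 CPM and schisandrin B libraries 2398, 3102 and 2473 CPM. Of 19 genes of the growth hormone and IGF axis 1 rose and 10 fell, among them Igf1 from 564, 1009.7 and 468 to 193, 227 and 167 CPM (-1.80 ± 0.29, edgeR adjusted p 0.000387), and Igfals, which carries it in blood, by 2.37 ± 0.42. Of 43 P450 genes of families 1 to 4, 10 rose and 20 fell (median -0.68), and these include male-biased and female-biased genes. Without normal replicate 3 Cyp3a2 rose by 8.46, and without fibrosis replicate 3 Prlr changed by -9.89. Without fibrosis replicate 2 the growth hormone and IGF axis had 3 rises.

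Most collagen chains, the main proteins of scar, had no call, and most matrix proteases and inhibitors rose. Of 20 collagen chains 5 rose and 1 fell (median 0.44; 11 rose and 1 fell with library totals), so that 30% were called, against 48.3% of all genes. Col3a1, the chain of reticular fibres, stood at 152, 255 and 199 CPM in libraries labelled normal and at 206, 154 and 303 CPM in fibrosis libraries, and Col1a1 at 7.64, 11.6 and 11.4 and 10.04, 8.17 and 21.5 CPM. Neither was called (edgeR adjusted p 0.718 and 0.506), the groups overlapped, and the schisandrin B libraries were above all 6, at 423, 330.1 and 339 and 64.4, 25.2 and 27.6 CPM. Col4a2, of basement membranes, rose from 29.7, 37.3 and 35.2 to 79.7, 40.2 and 60.1 CPM (0.82 ± 0.23, edgeR adjusted p 0.0124). Of 29 other matrix and crosslinking genes 9 rose and 3 fell. P4ha2, which hydroxylates collagen prolines, went from 27.4, 24.1 and 21.6 to 88.6, 56.8 and 65.5 CPM (1.53 ± 0.22, edgeR adjusted p 0.000202), decorin, Dcn, rose by 2.11 ± 0.42, and fibronectin, Fn1, had no call (0.17 ± 0.29). Tgm2, a crosslinking enzyme, fell from 198, 157 and 213 to 140.3, 82.2 and 70.2 CPM (-0.95 ± 0.26). Of 18 proteases and inhibitors 12 rose and 2 fell (median 1.18). Mmp10, stromelysin 2, had 0 counts in libraries labelled normal and 31.01, 19.5 and 3.58 CPM in fibrosis libraries, at least 76.9-fold higher. It had no call without the filter on low counts (edgeR adjusted p 0.078). Mmp2, which degrades basement membrane collagen, rose from 9.96, 11.6 and 11.9 to 21.4, 21.04 and 33.5 CPM (1.18 ± 0.24, edgeR adjusted p 0.00182), and Adam12 fell by 2.46 ± 0.55. Of 24 laminin and integrin chains 9 rose and 3 fell, with the laminin chain Lamc1 from 30.8, 47.95 and 36.5 to 549, 144 and 158 CPM (2.88 ± 0.49) and the integrin Itgb1 from 85.2, 87.1 and 86.7 to 355, 163 and 217 CPM (1.503 ± 0.25). Of 25 TGF-beta ligands, receptors and Smads 8 rose and 5 fell (median 0.04; 10 rose and 1 fell with library totals). Tgif1, a corepressor of Smads, rose from 10.1, 12.4 and 14.7 to 198, 118 and 59.3 CPM (3.33 ± 0.38, edgeR adjusted p 5.82e-05), Smad4 rose by 1.00 ± 0.16, and the inhibitor Smad7 fell by 1.34 ± 0.22. The shares called in the matrix, laminin and TGF-beta lists, 41.4%, 50% and 52%, were near that of all genes. Without normal replicate 1 the collagen rises were 3, and Col4a2 had no call (edgeR adjusted p 0.0551). Falls were 1 in the matrix list without fibrosis replicate 2 or normal replicate 3, and 3 in the TGF-beta list without fibrosis replicate 2, fibrosis replicate 3 or normal replicate 3. Without fibrosis replicate 1 Lamc1 rose by 1.98 and Adam12 changed by -3.09.

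Most interferon response genes fell, and most chemokine and interleukin genes had no call. Of 31 interferon response genes 18 fell and 0 rose (median -1.18). Ifi35 went from 85.98, 61.6 and 69.2 to 11.01, 16.2 and 9.98 CPM (-2.54 ± 0.22, edgeR adjusted p 8.55e-06), and the GTPase Igtp fell by 2.20 ± 0.21. Psmb9, a subunit of the immunoproteasome, fell by 2.46 ± 0.26. Of 22 chemokines and receptors 4 rose and 5 fell (2 rose and 7 fell without fibrosis replicate 1), a share called of 40.9% against 48.3% of all genes. Ccl2, which draws monocytes, went from 0.344, 0.135 and 0.162 to 13.1, 1.44 and 1.29 CPM (4.59 ± 1.03, edgeR adjusted p 0.00417), and Ccl21, a chemokine of lymphatic vessels, from 3.52, 3.59 and 6.48 to 25.8, 15.3 and 26.1 CPM (2.31 ± 0.31). Cxcl12, which holds blood cell precursors, fell from 684, 459 and 574 to 53.8, 69.2 and 48.7 CPM (-3.32 ± 0.29, edgeR adjusted p 7.77e-06), and Ccl9 by 2.92 ± 0.28. Of 31 interleukin and TNF family genes 7 rose and 5 fell (median -0.16, and 0.23 with library totals), a share of 38.7%. Tnfrsf12a, the receptor of the cytokine TWEAK, went from 2.23, 1.29 and 1.54 to 479, 98.7 and 64.7 CPM (6.99 ± 0.86, edgeR adjusted p 0.000167). Il1rl1, the receptor of IL-33, rose from 0.687, 1.02 and 0.405 to 13.7, 14.6 and 12.2 CPM (4.22 ± 0.37), while Il33 itself fell from 124, 109 and 134 to 9.23, 8.401 and 12.1 CPM (-3.62 ± 0.20, edgeR adjusted p 7.24e-07). Schisandrin B libraries lay between for Il33, at 51.1, 58.9 and 60.3 CPM. Lifr, the receptor of leukaemia inhibitory factor, fell from 1466, 533 and 1072 to 59.02, 25.5 and 41.3 CPM (-4.61 ± 0.42), and the schisandrin B libraries were lower still, at 23.3, 24.9 and 21.3 CPM. Il6 and Tnf held 3 and 1 counts in the fibrosis libraries and were not tested. With fibrosis replicate 1 left out Ccl2 rose by 2.66 and Tnfrsf12a by 5.61, and 8 genes of the interleukin and TNF families fell.

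Markers of hepatocytes, T cells and sinusoidal endothelium fell more often than they rose, and those of myofibroblasts, bile ducts and neutrophils rose more often than they fell. The shares called among myofibroblast, bile duct and neutrophil markers, 44.4%, 50% and 50%, were near the 48.3% of all genes. Those among hepatocyte, T and NK cell and sinusoidal endothelial markers were 66.7%, 87.5% and 60%. Of 12 general hepatocyte markers 8 fell and 0 rose (median -0.90; 1 rose without fibrosis replicate 1 or 3). Of 9 tested myofibroblast markers 4 rose and 0 fell (median 0.65). Acta2, smooth muscle actin, went from 6.700, 5.35 and 5.02 to 17.6, 9.31 and 22.7 CPM (1.54 ± 0.32, edgeR adjusted p 0.00196), with 5.35, 4.74 and 3.56 CPM in schisandrin B libraries. The whole myofibroblast list, which includes Col1a1 and Col3a1, summed to 602, 433 and 448 CPM with schisandrin B. Its sums were 360, 232 and 465 CPM in fibrosis libraries and 216, 334 and 257 CPM in libraries labelled normal. Of 10 resting stellate cell markers 4 rose and 3 fell (4 and 5 without fibrosis replicate 1). Cygb, a globin of stellate cells, rose from 15.9, 13.1 and 13.8 to 53.6, 35.04 and 39.6 CPM (1.58 ± 0.22), and Lrat, which stores retinol as esters, fell from 10.05, 19.6 and 11.5 to 1.05, 1.14 and 1.53 CPM (-3.45 ± 0.31, edgeR adjusted p 9.82e-06). Of 8 tested cholangiocyte markers 3 rose and 1 fell: Epcam rose from 12.97, 18.2 and 14.3 to 52.2, 33.8 and 39.5 CPM (1.47 ± 0.27) and Krt19 by 1.27 ± 0.33, while Prom1 fell from 36.9, 17.3 and 22.9 to 2.43, 2.04 and 2.64 CPM (-3.43 ± 0.34). Sox9, a duct factor, held too few counts for a test. Of 14 Kupffer cell and macrophage markers 3 fell and 0 rose, but 10 fell without fibrosis replicate 1, 1 without normal replicate 1, and 0 without fibrosis replicate 2, fibrosis replicate 3 or normal replicate 2. One rose without fibrosis replicate 3 or normal replicate 1. Clec4f, found in Kupffer cells, stood at 599, 667 and 499.8 and 462, 279 and 332 CPM (-0.72 ± 0.24, edgeR adjusted p 0.0273), with no call without fibrosis replicate 2 or 3 or normal replicate 1 or 2 (edgeR adjusted p 0.0824, 0.0663, 0.0639 and 0.0911). Of 9 scar macrophage markers 6 rose (3 without fibrosis replicate 1 or normal replicate 3), among them Mmp12 (3.42 ± 0.79, 2.28 without fibrosis replicate 1 and 4.22 without normal replicate 1). The defining markers Trem2 and Gpnmb had no call, and Gpnmb rose without normal replicate 2 (edgeR adjusted p 0.0107). Of 10 sinusoidal endothelial markers 6 fell (3 without fibrosis replicate 2 or normal replicate 3, and 1 with library totals, where 1 rose), among them Kdr, the VEGF receptor, from 93.8, 121 and 137 to 55.9, 50.7 and 53.4 CPM (-1.14 ± 0.17, edgeR adjusted p 0.000265). Of 8 tested T and NK cell markers 7 fell and 0 rose (3 fell without fibrosis replicate 2 or 3, 2 without normal replicate 1 and 1 with library totals). The pore protein Prf1 stood at 12.03, 9.28 and 10.1 and 4.45, 3.25 and 2.53 CPM. Of 5 tested B and plasma cell markers 4 fell. Of 6 tested neutrophil markers 3 rose, Csf3r from 2.66, 0.88 and 3.32 to 9.63, 4.99 and 9.81 CPM (1.84 ± 0.48), S100a8 and Lcn2, and the granule genes Mpo and Elane held too few counts for a test. S100a8 had no call without normal replicate 1 or 2 (edgeR adjusted p 0.0677 and 0.0724). Lcn2 is also on the lists of secreted stress factors and of acute phase proteins, so its rise is not particular to neutrophils. Whether shifts in cell make-up took part in the other changes was not tested.

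**Figure D4:**
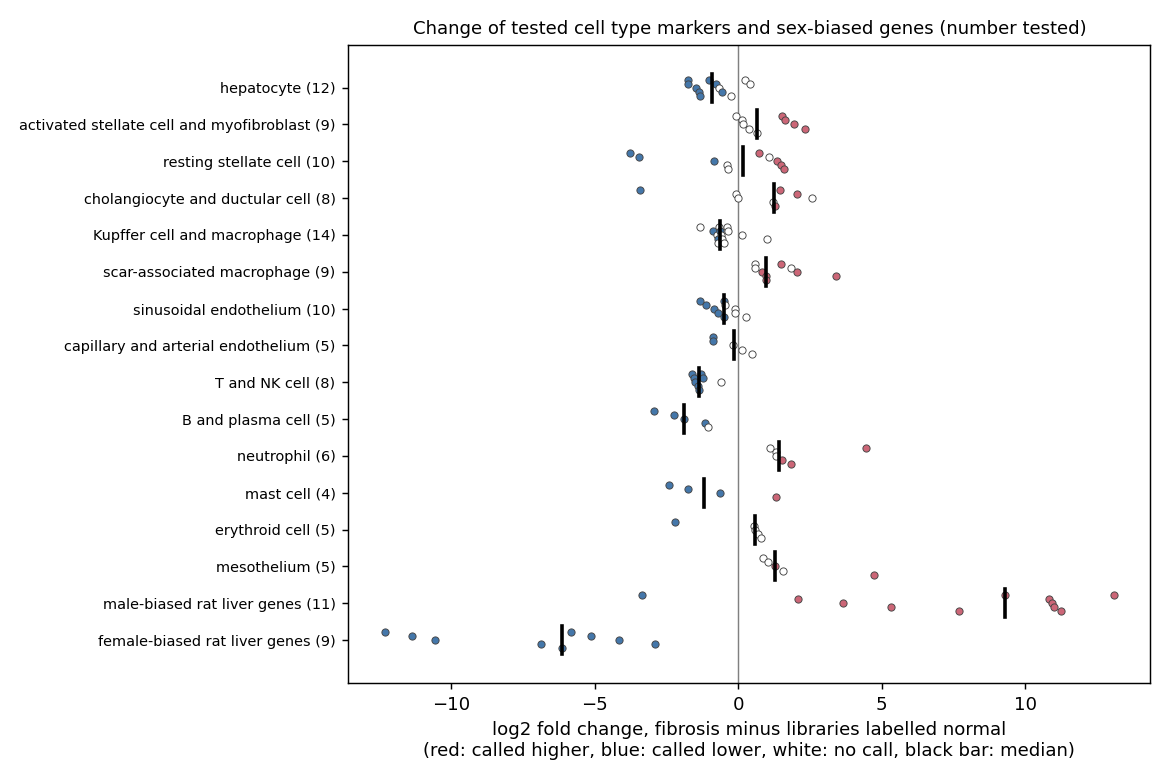
Log2 fold change (fibrosis minus libraries labelled normal, linear axis) of every tested marker of 14 cell types and of the male-biased and female-biased liver genes; 1 dot is 1 gene, filled where edgeR called it, and the bar is the median. Markers of cell types lie mostly within 4 of 0, and the sex-biased genes reach 13.09 and -12.31.

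Transcripts of other tissues stood out in single libraries. Skeletal muscle genes stood out in fibrosis replicate 2, with Ckm, muscle creatine kinase, at 0.081, 32.9 and 0 CPM and Myh1, a fast myosin, at 0.081, 30.4 and 0.0587 CPM across the 3 fibrosis libraries, and Acta1 at 1.295, 57.1 and 0.763 CPM. The call of Acta1 (5.85 ± 1.88, edgeR adjusted p 0.031) rests on that library: without it the change was 1.60 (edgeR adjusted p 0.195). It was also lost without any one library labelled normal (edgeR adjusted p 0.0762 to 0.0818). Adipocyte genes stood out in normal replicate 2, with Adipoq at 0, 12.3 and 0 CPM. The enzymes that define pancreatic acinar cells, Prss1, Cela2a, Ctrb1 and Pnlip, had 0 counts in all 6 libraries. Cpa1, which is listed with them, had 239, 80.8 and 83.1 CPM in libraries labelled normal and 0 counts in fibrosis libraries together. It was at least 624-fold lower, and the schisandrin B libraries held 0 counts of it as well.

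Among all genes the largest rises without overlap, at 5 CPM or more, were Slc22a8, ste2, Slc7a11, Mup4, Sdcbp2, Cyp3a85-ps, Mup5, Hsd3b5, Mmp10, Obp3, Fosl1 and Hspa1a. Slc22a8, Mup4, Mup5, Hsd3b5 and Obp3 are on the list of male-biased genes, and the schisandrin B libraries held Slc22a8 at 255, 312 and 279 CPM. Slc7a11, Sdcbp2, Mmp10 and Fosl1 had 0 counts in all 3 schisandrin B libraries. Sdcbp2, a syntenin with paired PDZ domains, stood at 108, 61.2 and 62.1 CPM in fibrosis libraries and held 1 count in libraries labelled normal, and the ratio scaled to depth was 2912 with an exact 95% counting interval of 522 to 115043. Among the largest falls were Cpa1, A1bg, Akr1b7, Ky, Sult2a2, Mmd2, Prlr, Apba2, Sult2a1 and Aox3. A1bg, Akr1b7, Sult2a2 and Prlr are on the female-biased list. Aox3, an aldehyde oxidase, differed in that schisandrin B libraries held 30.96, 86.9 and 33.1 CPM, against 57.4, 73.96 and 219 CPM in libraries labelled normal and 2.43, 0.908 and 0.411 CPM in fibrosis libraries (-6.59 ± 0.84, edgeR adjusted p 0.000219). Near-identical copies within the Mup, Sult2a, Cyp3a and Hspa1 families may split each other's reads. The change of Aox3 was -7.50 without fibrosis replicate 1 and -5.77 without normal replicate 3.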

How the data were processed

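Whole-liver RNA was read on an Ion Proton sequencer, and the deposited table holds whole-number counts per gene symbol, per the file headers and values. GRCm38, a mouse build, is named in the submitters' processing notes, while the labels give a rat strain and the symbols are those of rat. Aligner, counter and strand setting: not given in the sources used here. All 9 columns were matched to samples by name. From the counts, genes were kept by filterByExpr, libraries scaled by TMM, and fibrosis set against normal in edgeR 4.0.16 (R 4.3.3) by the robust quasi-likelihood F test over all 9 libraries, with Benjamini-Hochberg adjustment at 0.05. SE is the log2 fold change divided by the root of F. The fit was tested on simulated data. Alternatives used DESeq2 1.42.0, limma voom 3.58.1, other scalings and filters, and left out each library. Libraries held 11559361 to 16255167 counts, and intervals cover counting error only.

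The members and gene lists were chosen with earlier results of these data known, so counts over lists are descriptions. Named genes were those starred in each list, up to 4 called members with the lowest adjusted p and up to 2 in the rarer direction, the 12 largest rises and falls without overlap at 5 CPM or more, and the 10 largest gains and losses of CPM; in lists with no call, the 2 highest. Elane, Il6, Mpo, Srd5a1 and Tnf were chosen after their values were seen. A few genes that this rule names are not reported here. No sequences are shown.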

Additional observations from a re-analysis of the deposited data

How the results depend on the processing

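Library totals in place of TMM factors gave 5651 genes higher and 1917 lower, against 3708 and 3333, with 5625 calls shared, and raised the share of calls that were higher from 52.7% to 74.7%. The other scalings, filters and tools tried kept both counts within 1.5 times, among them upper-quartile factors (3306 and 3730) and DESeq2 (3715 and 3554). Leaving out 1 library gave 3155 to 3810 genes higher and 2890 to 3443 lower, with 5838 to 6387 calls shared. With library totals the falls among nuclear genes of the respiratory chain went from 35 to 14 of 52, and the rises among ribosomal protein genes from 31 to 61 of 76. Beside the calls given as lost in the text, library totals ended those of Abcb11, Clec4f and Tmsb4x (edgeR adjusted p 0.219, 0.299 and 0.114). Upper-quartile factors ended those of Aass, Fgg and Pck2 (edgeR adjusted p 0.0569, 0.0646 and 0.0833), and a fit of only the 6 libraries did the same (0.0582, 0.0699 and 0.0854). Without the filter on low counts Aass, Acta1, Pck2 and Tfrc had no call (edgeR adjusted p 0.0986, 0.104, 0.101 and 0.0649), and in limma voom Aass, Acta1 and Pck2 had none (adjusted p 0.0667, 0.213 and 0.112). At a mean of at least 5 CPM Pck2 had none (edgeR adjusted p 0.0573). The cause was not tested. No paired analysis was possible because the labels carry no replicate numbers. With 3 libraries a group, genes of few counts were limited by depth. Sex and CCl4 cannot be told apart against the libraries labelled normal.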
